A study of Mus musculus with 2 samples.

Results

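CD62L-high CD8 T cells are CD8 T cells that carry much CD62L on their surface. They were examined among the CD45+ immune cells of visceral adipose tissue (VAT) in wild-type C57BL/6 mice aged 15 weeks that drank normal water (NW) or received antibiotics (ABX). Each condition was profiled as 1 library of single-cell RNA sequencing (scRNA-seq) with AbSeq, in which antibodies tagged with oligonucleotides are counted beside the transcripts as unique molecular identifiers (UMIs). The cells were enriched with CD45 magnetic beads after enzymatic digestion at body temperature, and the number of mice behind each library was not given in the sources used here. The treatment is labelled only as antibiotics, and the study's methods describe ampicillin, streptomycin, colistin and vancomycin in drinking water, singly or as a mixture. With 1 library per condition there is no test, no p-value and no estimate of the spread between mice, and every 95% interval below covers counting error only.

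The cells were chosen by transcripts and antibody counts. A cell needed at least 1 UMI of Cd8a or Cd8b1, at least 1 UMI of the Cd3 genes, under 10 CD4, at least 15 TCRβ and at least 10 CD62L antibody UMIs. Cells with more than 2 Trdc UMIs, any Xcr1, Clec9a or Cdh5 UMI, or at least 5 C1q UMIs were left out. This rule chose 88 of 25198 cells, of which 34 were among 12474 cells in NW and 54 among 12724 in ABX. The remaining CD8 T cells, which met every limit except that for CD62L and are called CD62L-low here, numbered 69 in NW and 90 in ABX. CD62L-high CD4 T cells, chosen by matching limits with at least 10 CD4 antibody UMIs, no Cd8a or Cd8b1 UMI and no Foxp3 UMI, numbered 78 and 135.

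CD62L is the adhesion molecule with which lymphocytes enter lymph nodes from the blood. Naive T cells and central memory T cells carry it, and T cells lose it when they become effector cells or settle in a tissue. CD44, the receptor for hyaluronan, is low on naive cells and high on cells that have met antigen, so both proteins together are commonly used to tell naive, central memory and effector memory CD8 T cells apart.

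The CD62L-high CD8 T cells were sequenced to a median of 3868.5 UMIs per cell in NW and 4211.5 in ABX. The medians were 3032 and 2743.5 in CD62L-low CD8 T cells and 5092 and 3845.5 over all cells. Mitochondrial transcripts held 7.24% of the summed UMIs of the CD62L-high CD8 T cells in NW and 9.78% in ABX. The libraries shared 371 cell barcodes. One CD62L-high CD8 T cell of each library (1 of 34 and 1 of 54) carried such a barcode, and no barcode was shared between both sets. RNA of other cells was present at low levels. Of the 8 B cell markers the CD62L-high CD8 T cells held a median of 4 UMIs in both libraries, and 1 cell in NW and 6 in ABX held 15 or more. Of the 10 macrophage markers they held medians of 7 and 4 UMIs, and the natural killer (NK) cell receptor Ncr1 and the endothelial Cdh5, the latter required to be absent, were at 0 in both.

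The label of resting CD8 T cells was checked against Cd8b1, Dapl1, Lef1 and Nsg2. Lef1, a transcription factor of naive T cells, had a UMI in 25 of 34 CD62L-high CD8 T cells in NW (73.5%) and in 44 of 54 in ABX (81.5%). In CD62L-low CD8 T cells the shares were 36.2% and 35.6%, and in macrophages with at least 20 C1q UMIs, which should lack the gene and were sequenced more deeply (medians of 6188 and 4991 UMIs), they were 1.13% and 1.43%. Nsg2, a vesicle protein whose transcript marks naive T cells, was found in 44.1% and 51.9% of CD62L-high and in 7.25% and 4.44% of CD62L-low CD8 T cells. Cells with at least 1000 UMIs were then thinned to 1000 UMIs each, and cells with fewer were left out of these shares. Lef1 was kept in 41.5% and 39% of CD62L-high against 15.9% and 17.0% of CD62L-low CD8 T cells. Nsg2 was kept in 15.4% and 17.2% against 2.72% and 1.1%. Both genes therefore kept their order at equal depth and lay far above the macrophage level of 0.178% and 0.280% for Lef1.

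Dapl1, a marker of naive CD8 T cells, was uneven between the libraries. It had a UMI in 5 of 34 CD62L-high CD8 T cells in NW (14.7%, 4.95 to 31.1%) and in 21 of 54 in ABX (38.9%, 25.9 to 53.1%). In CD62L-low CD8 T cells the shares were 10.1% and 3.33%, and in macrophages 0.0782% and 0.104%. After thinning they were 5.53% and 16.4% in CD62L-high CD8 T cells. CD62L-high CD4 T cells had a Dapl1 UMI in 8.97% (NW) and 21.5% (ABX) of cells. They had Lef1 in 48.7% and 60% and Nsg2 in 23.1% and 36.3%, so these genes were not particular to the CD8 T cells. Cd8b1, which the rule used, was found in 26 of 34 and 45 of 54 cells, and in 62 of 69 and 79 of 90 CD62L-low CD8 T cells. It thus did not tell these groups apart. In the mouse build GRCm38, Lef1 lies on the plus strand of chromosome 3 (131110471 to 131224356), Nsg2 on that of chromosome 11 (32000463 to 32059202), Dapl1 on that of chromosome 2 (59484653 to 59505020) and Cd8b1 on that of chromosome 6 (71322788 to 71337494).

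Many of the cells also held transcripts of memory and effector cells. Ccl5, a chemokine of memory and effector CD8 T cells, had a UMI in 18 of 34 CD62L-high CD8 T cells in NW and in 31 of 54 in ABX, against 12.9% and 11.7% of macrophages. A Ccl5 and a Lef1 UMI were found together in 10 cells in NW and in 26 in ABX. A list of 30 effector and cytotoxic genes held granzymes, perforin, chemokines and NK receptors, and also S100, galectin and annexin genes. It took at least 10 of every 1000 UMIs in 17 of 34 cells in NW and in 10 of 54 in ABX, and fewer than 5 of every 1000 in 15 and 30 cells. Ccl5 alone held 749 of the 1393 UMIs of this list in NW and 782 of 1434 in ABX, so the list mostly followed Ccl5. The cells were thus not all naive, and whether they were at rest was not tested. They are called CD62L-high CD8 T cells below.

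**Figure D1:**
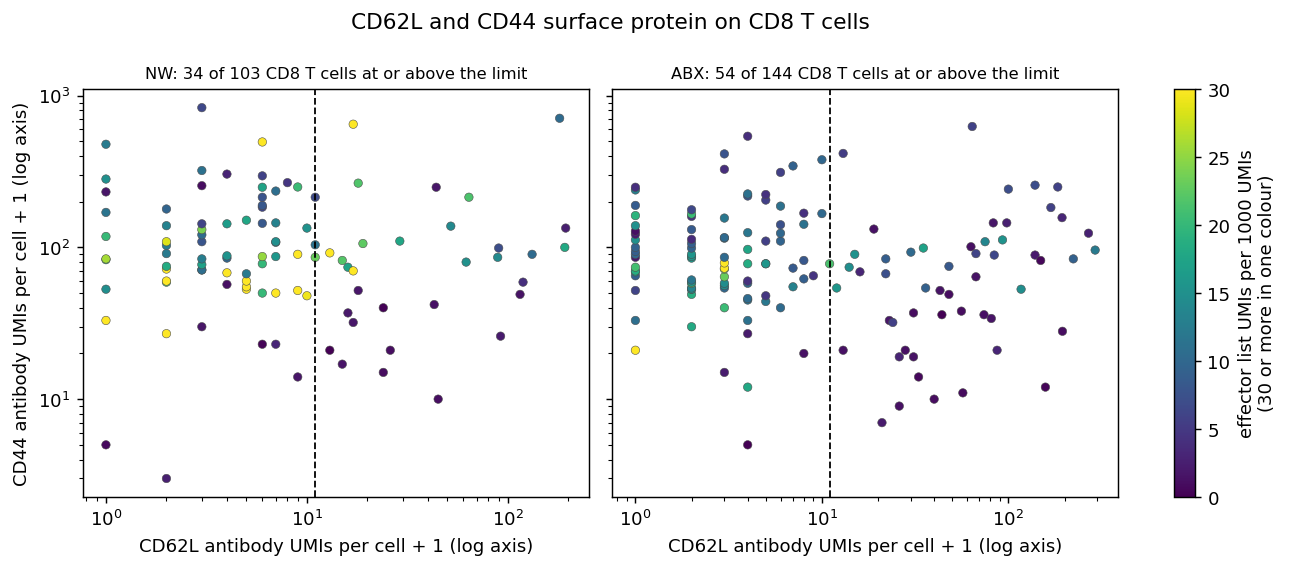
Each point is a CD8 T cell of NW (left) or ABX (right), placed by its CD62L (x axis) and CD44 (y axis) antibody UMIs plus 1, both on log axes, and coloured by the UMIs of the effector and cytotoxic list per 1000 UMIs of the cell. The dashed line marks the limit of 10 CD62L antibody UMIs. Cells to its right span a wide range of CD44, and the darkest points (few effector transcripts) lie mostly at low CD44.

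CD62L antibody counts chose the cells and are given as a description. They ranged from 10 to 193 in NW with a median of 24, and from 10 to 291 in ABX with a median of 51. In CD62L-low CD8 T cells the medians were 3 and 2. The limit did not fall into an empty stretch, since 6 CD8 T cells in NW and 3 in ABX held 8 or 9 CD62L UMIs and 3 and 2 held 10 or 11.

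The antibodies that the rule did not use as a lower limit showed more CD8b on the CD62L-high cells. On CD62L-high cells the median CD8b count, for the β chain of the CD8 coreceptor, was 111 UMIs (NW) and 84 (ABX), compared with 38 and 19.5 on CD62L-low CD8 T cells and 22 and 11 on CD62L-high CD4 T cells. TCRβ, required at 15 or more, had medians of 86 and 86.5 against 45 and 32.5 on CD62L-low cells. CD44 medians were close, with 83 and 70.5 on CD62L-high and 89 and 84.5 on CD62L-low CD8 T cells. The early activation marker CD69 had low medians of 10 and 5, and so had CD25, the α chain of the IL-2 receptor, with 10 and 6. CD8b and TCRβ counts went together across the CD62L-high cells (Spearman correlation of 0.84 over 34 cells in NW and 0.92 over 54 in ABX), and both come from the same stained cell. Antibody totals differed too, with medians of 457 and 383.5 UMIs per CD62L-high against 263 and 192 per CD62L-low CD8 T cell, and their part in these differences was not tested. Of the CD62L-high cells, 5 in NW and 10 in ABX held under 20 CD8b antibody UMIs, and 0 and 5 of these had a Cd8b1 transcript. In these cells the effector list took 10.4 to 18.1 of every 1000 UMIs in NW and 5.39 to 15.9 in ABX. Its medians over all CD62L-high cells were 8.75 and 3.02. Effector list UMIs per 1000 and CD8b counts had Spearman correlations of -0.20 in NW and -0.51 in ABX. Effector-rich cells thus included those with little CD8b protein.

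CD62L-high CD8 T cells were a small share of the VAT immune cells and a somewhat larger one in ABX. They made up 0.273% of all cells in NW (exact binomial 95% interval 0.189 to 0.381%) and 0.424% in ABX (0.319 to 0.553%). The ratio of ABX to NW was 1.56, or 0.192 on the log10 scale (0.00625 to 0.378). This counting interval barely excluded 0, and it included 0 when the CD62L limit was lowered to 5 (0.0718, -0.0778 to 0.221), when cells with over 10% mitochondrial UMIs were left out (0.0676, -0.160 to 0.295) or when at least 30 TCRβ UMIs were required (0.186, -0.0123 to 0.385). It also included 0 without the cells of 15 or more B cell marker UMIs (0.154, -0.0381 to 0.346) and without those of under 20 CD8b antibody UMIs (0.172, -0.0309 to 0.376). With a CD62L limit of 20 it was larger, at 0.375 (0.144 to 0.607).

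Among CD8 T cells the CD62L-high cells took 33.0% in NW (24.1 to 43.0%) and 37.5% in ABX (29.6 to 45.9%), a difference that was not detectable at this number of cells (0.0554 on the log10 scale, -0.0951 to 0.206). With a limit of 20 CD62L UMIs in place of 10, the ratio was 0.238 on the log10 scale (0.0340 to 0.443), and with a limit of 5 it was -0.0651 (-0.167 to 0.0370), in the other direction. CD62L-low CD8 T cells had a ratio of ABX to NW of 1.28 among all cells, and CD62L-high CD4 T cells one of 1.70. Among CD62L-high T cells of both lineages, the CD8 T cells held 30.4% in NW and 28.6% in ABX.

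To describe what distinguished these cells from the other CD8 T cells of the fat, the UMIs of all cells of a kind were added up within each library and expressed per 1000000 summed UMIs (CPM). Several genes of the naive list, led by Nsg2, Actn1 and Lef1, were higher in CD62L-high than in CD62L-low CD8 T cells in both libraries, and none of that list was lower (0 of 17). Genes of the effector, memory and tissue residency lists were lower or did not reach the limit. Of 1629 genes with at least 100 UMIs, 35 (2.15%) were at least 1.5-fold higher in both NW and ABX and 92 (5.65%) at least 1.5-fold lower.

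Lef1 had 639.7 against 178 CPM in NW (log2 ratio 1.84, 1.30 to 2.40) and 511 against 195 CPM in ABX (1.39, 0.94 to 1.86). Nsg2 had log2 ratios of 2.17 (1.12 to 3.33) and 3.79 (2.49 to 5.47). Actn1, the cytoskeletal crosslinker α-actinin, had log2 ratios of 1.65 and 3.44, and Il6ra, the receptor for IL-6, of 1.61 and 2.56. Satb1, a chromatin organizer of T cell development, had ratios of 2.12 and 1.25 on the log2 scale, and Cmah, the enzyme that makes N-glycolylneuraminic acid, of 1.40 and 1.35. Sidt1, a transmembrane protein related to RNA transport channels, followed with 1.71 and 1.23, Pik3ip1, an inhibitor of PI3 kinase, with 1.23 and 1.08, and Prkcq, the protein kinase Cθ of T cell receptor signalling, with 1.03 and 1.00. Klkb1 (0.89 and 1.14) and Add3, a cytoskeletal adducin (0.87 and 0.94), were the smallest of the differences named here by rank, and Klkb1's interval in NW reached 0. Ribosomal protein genes made up 6 of the 35.

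Of the 25 genes used from the naive and quiescence list, 17 had enough UMIs, and 5 of these were at least 1.5-fold higher in both libraries and 0 lower. Their log2 ratios had a median of 0.66 (NW) and 0.53 (ABX), while all 1629 genes had one of -0.07 and -0.13. Lef1, Nsg2, Actn1, Satb1 and Pik3ip1 were the 5. The list summed to 11470 against 7487 CPM in NW (log2 ratio 0.62, 0.52 to 0.71) and to 8874 against 6407 CPM in ABX (0.47, 0.38 to 0.56). Ccr7, the chemokine receptor that acts with CD62L in lymph node entry, had fewer than 100 UMIs. It had a UMI in 14 of 34 CD62L-high and 7 of 69 CD62L-low CD8 T cells in NW and in 26 of 54 against 5 of 90 in ABX, with log2 ratios of 1.95 (0.87 to 3.13) and 3.41 (2.19 to 4.91). Tcf7, the partner of Lef1, differed less (0.74 and 0.52), and Il7r, the receptor for the survival cytokine IL-7, by 0.34 and 0.03.

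Lower genes included Ly6a (Sca-1, an interferon-induced surface protein), with 22.1 against 182 CPM in NW (log2 ratio -3.05, -5.38 to -1.41) and 64.8 against 228 CPM in ABX (-1.81, -2.67 to -1.03). Cxcr3, a chemokine receptor that guides T cells into inflamed tissue, had log2 ratios of -2.40 and -1.38. Rora, a nuclear receptor found in tissue lymphocytes, had ratios of -1.52 and -1.96 on the log2 scale, and Itgb1, the integrin β1 chain, of -1.28 and -1.78. S100a4, a calcium-binding protein of effector and memory cells, had -1.28 and -1.99, and Nr4a1, an early response gene to T cell receptor signals, -1.24 and -1.67. Il2ra, which encodes CD25, was lower by the same measure at -2.54 (-4.90 to -0.86, from 3 UMIs) and -1.26, and the cytokine signalling inhibitor Socs2 at -1.21 and -2.43. The serine protease inhibitor Serpina3g had -1.62 and -2.16, the kinase inhibitor Camk2n1 -1.60 and -1.58, the acid-sensing receptor Gpr65 -2.01 and -1.29, and the membrane protein Tmem176a -1.21 and -2.24. All 23 genes named by rank lay on the same side of 0 in both libraries, as the ranking required.

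**Figure D2:**
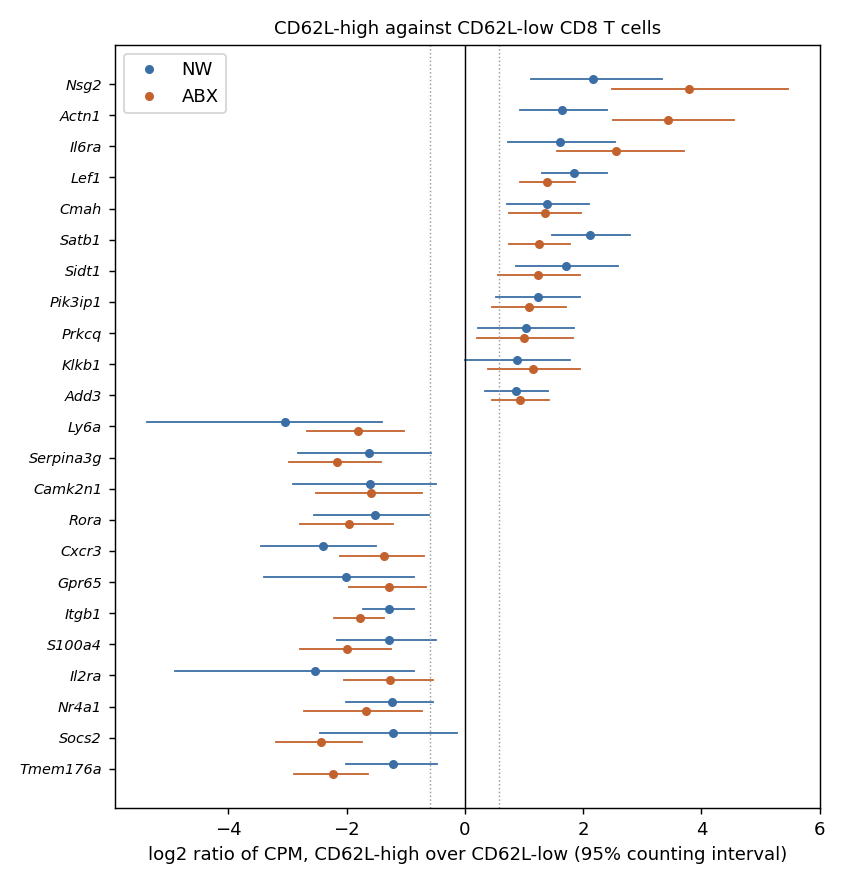
Log2 ratio of CPM in CD62L-high over CD62L-low CD8 T cells (x axis) for 11 of the genes ranked highest and the 12 ranked lowest, with 95% counting intervals as bars, in NW (blue) and ABX (orange). Dotted lines mark a 1.5-fold difference, and Nsg2 and Actn1 lie farthest to the right in ABX at 3.79 and 3.44.

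The effector and cytotoxic list summed to 10242 CPM in CD62L-high and 15666 CPM in CD62L-low CD8 T cells in NW (log2 ratio -0.61) and to 5468 against 10687 CPM in ABX (-0.97). Of its 13 genes with enough UMIs, 6 were lower in both libraries and 0 higher. Ccl5 led the list by level, with 5507 against 8677 CPM in NW (log2 ratio -0.66) and 2982 against 5559 CPM in ABX (-0.90). The memory list had 5 lower genes and 0 higher of 13. The tissue residency list (3 lower and 0 higher of 7) summed to 1559 against 2269 CPM in NW and 942 against 1904 CPM in ABX. Cxcr6, a chemokine receptor of tissue-resident T cells, had 221 against 448 CPM in NW and 111 against 492 CPM in ABX.

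The sum of the T cell receptor and signalling list differed little (log2 ratios of -0.12 in NW and -0.10 in ABX). Of its 23 genes with enough UMIs, 0 passed the 1.5-fold limit in either direction. None of the 17 dissociation stress genes did (0 of 17), but their list summed lower (-0.27 and -0.13). Over all 1629 genes only 2.15% were higher and 5.65% lower, so a 0 in lists this short says little. MHC class I presentation had 1 lower of 13 genes. Its sum was lower by -0.30 (-0.38 to -0.22) in NW and -0.49 (-0.56 to -0.43) in ABX. Interferon-stimulated genes had 1 lower of 8, with sums of -0.17 (-0.36 to 0.02) and -0.41 (-0.56 to -0.26). In the cytokine receptor list 1 was higher and 1 lower of 12, and in the homing list 1 was higher and 3 lower of 12. B cell markers were lower in CD62L-high than in CD62L-low CD8 T cells, with 1397 against 1995 CPM in NW and 2387 against 9456 CPM in ABX, where 1 CD62L-low cell held 2204 of the UMIs. Markers of γδ T cells (16 against 60 UMIs in NW, log2 ratio -1.08, and 31 against 101 in ABX, -1.50) and of CD4 T cells (3 against 21, -1.98, and 8 against 28, -1.60) were lower too, with intervals that excluded 0 in both libraries. Dendritic cell markers differed by -0.80 and -0.11, macrophage markers by -0.25 and 0.01, NK cell markers by -0.40 and 0.05 and endothelial markers by 0.83 and 1.45. The part of these lists in the effector and residency differences was not tested. Without the cells of under 20 CD8b antibody UMIs the counts of genes were 22 higher and 49 lower.

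Across all CD8 T cells, those with the most CD62L protein held less effector and more naive transcript than those with the least, though not in an even order. The CD62L counts chose the cells, so these levels are a description. In NW the effector list summed to 15620 CPM at 0 to 4 CD62L UMIs, 15760 at 5 to 9, 13748 at 10 to 19, 6058 at 20 to 39 and 8373 at 40 or more, so it was higher at the last step than at the one before. In ABX it went from 11124 through 8735, 7806 and 6269 to 4766 CPM over the same steps. The naive list went the other way, from 7578 to 12445 CPM in NW and from 6366 to 9253 CPM in ABX between the first and the last step. Lef1 had 198, 138, 498, 1311 and 593 CPM over the steps in NW and 129, 486, 284, 671 and 487 CPM in ABX, so that each step from 10 UMIs on lay above the first, but in ABX the step of 5 to 9 exceeded that of 10 to 19. In NW the step of 20 to 39 held only 4 cells, and in ABX that of 10 to 19 held 8. The CD62L-high cells with 10 to 19 CD62L UMIs (15 in NW) thus held nearly as much effector transcript in NW as CD62L-low cells did.

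**Figure D3:**
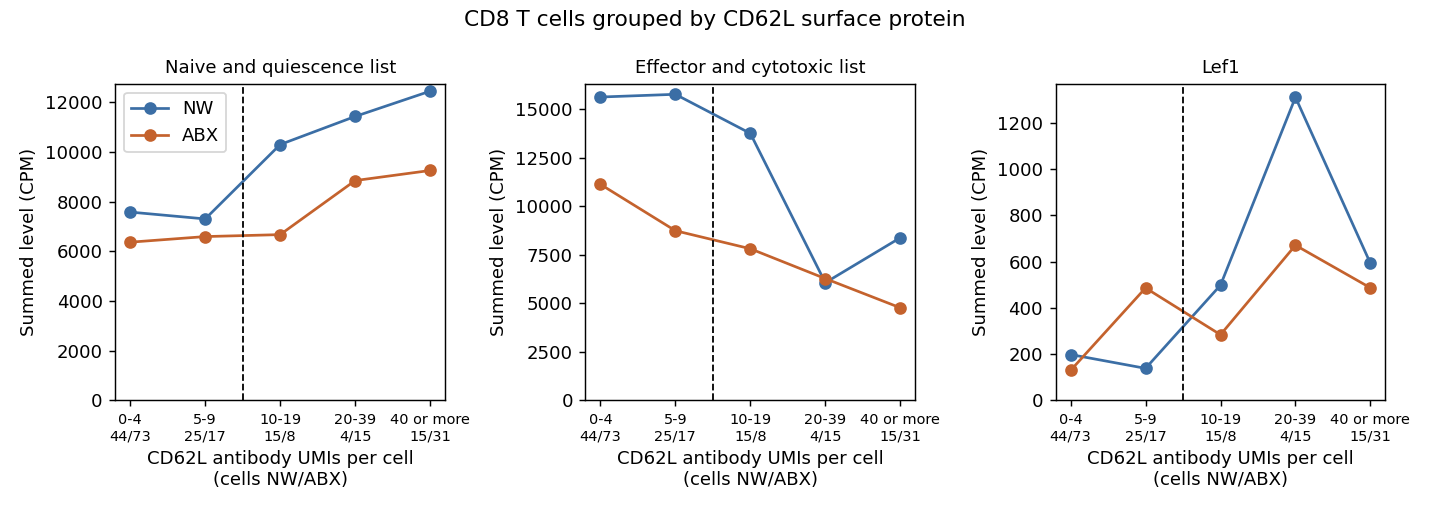
Summed CPM (y axes, from 0) of the naive and quiescence list, the effector and cytotoxic list, and Lef1, in CD8 T cells grouped by CD62L antibody UMIs (x axes, with the number of cells in NW and ABX), for NW (blue) and ABX (orange). The dashed line marks the limit of 10, and the effector list goes from 15620 to 8373 CPM in NW and from 11124 to 4766 CPM in ABX between the first and the last group.

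The CD62L-high CD8 T cells were also set against CD62L-high CD4 T cells. Of these CD4 T cells, 20 of 78 in NW and 28 of 135 in ABX held 100 or more CD25 or NK-1.1 antibody UMIs. Among the CD62L-high CD8 T cells, 2 of 34 and 3 of 54 did. CD44 medians were 187 and 66 on the CD4 and 83 and 70.5 on the CD8 T cells. The part of this makeup in the differences of single genes was not tested. Ccl5, Nkg7 and other genes of the effector list were higher in the CD8 T cells, while the naive list summed to slightly lower levels in them in ABX (log2 ratio -0.15, -0.23 to -0.08) and differed by -0.05 (-0.14 to 0.04) in NW. Of 2141 genes with at least 100 UMIs, 32 (1.49%) were at least 1.5-fold higher in both libraries and 94 (4.39%) lower. Cd8a, Cd8b1 and Cd4 were among them through the rule.

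Ccl5 had 5507 CPM in the CD8 and 1381 CPM in the CD4 T cells in NW (log2 ratio 2.0, 1.82 to 2.17) and 2982 against 774 CPM in ABX (1.95, 1.77 to 2.12). Nkg7, a cytotoxic granule protein, had log2 ratios of 2.03 and 1.60, and Ly6c2, a surface protein of memory CD8 T cells, of 1.48 and 2.21. Ly6c2 is nearly identical to its neighbour Ly6c1, so the values of both are uncertain. Ctsw (cathepsin W), a protease of cytotoxic cells, had 1.45 and 1.89, the NK receptor chain Klrd1 (CD94) 1.12 and 1.36, and the T cell costimulatory protein Cd7 1.07 and 1.08. The effector list had 5 higher and 2 lower of 11 genes. The ranked genes also held Sidt1 (1.08 and 1.98) and the nuclear genes of mitochondrial proteins Shmt2 (1.03 and 1.22) and Dnajc15 (1.00 and 1.55). The purine synthesis enzyme Atic (0.86 and 1.09) was ranked too, and the NW intervals of Shmt2 and Atic included 0.

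Of the 25 naive genes, 0 were higher and 2 lower, and the sums were 11470 against 11867 CPM in NW and 8874 against 9877 CPM in ABX. Tcf7 differed by 0.08 and -0.12 and Ccr7 by -0.08 and 0.42 on the log2 scale. Dapl1 had 66.2 against 47.4 CPM in NW (0.48, -0.91 to 1.79) and 233 against 112 CPM in ABX (1.05, 0.52 to 1.59). Dapl1 thus stood above the CD4 T cells in ABX, while in NW its interval included 0.

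Lower in CD8 than in CD4 T cells were Ly6a (log2 ratios of -4.22, -6.51 to -2.63, and -2.41, -3.22 to -1.69) and its relative Ly6c1, which had 0 against 112 CPM in NW and 11.4 against 121 CPM in ABX. Il1rl1, which encodes the IL-33 receptor ST2, had 7.35 against 525 CPM in NW (-6.16, -11.47 to -3.66, from 1 UMI) and 38.1 against 142 CPM in ABX (-1.89), and 9 of its 10 UMIs in ABX came from 1 CD8 T cell. Nr4a1 (-1.86 and -1.59), Socs2 (-2.37 and -1.51), the lectin Lgals3 (-1.63 and -1.65), the membrane protein Tmem64 (-1.54 and -1.41) and the plasma cell factor Xbp1 (-1.32 and -2.87) were also lower. Of the dissociation stress list, 6 of 19 genes were lower and 0 higher. The rest of the ranked genes were Cybb, a phagocyte oxidase subunit, the kinase Syk and the lipid carrier Fabp4, and each had an NW interval that included 0. B cell markers stood at 2898 and 10815 CPM in the CD4 and at 1397 and 2387 CPM in the CD8 T cells. Dendritic cell markers were lower in the CD8 T cells too, with 273 against 1050 UMIs in NW (log2 ratio -0.82) and 596 against 3865 in ABX (-1.64) and with 3 of 3 genes past the limit, and so were NK cell markers (-1.03 and -0.97). Macrophage markers differed by -0.18 and -0.36, endothelial markers by 0.00 and -1.21 and γδ T cell markers by 1.21 and -0.24, and the part of these lists in the lower genes was not tested. Without cells of 15 or more B cell marker UMIs, 45 genes were lower in place of 94. The CD62L-high CD8 T cells are the same in this comparison and in that with CD62L-low CD8 T cells, and Sidt1 was ranked among the higher genes and Ly6a, Nr4a1 and Socs2 among the lower genes of both.

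CD44 protein, which the rule did not use, divided the CD62L-high CD8 T cells into cells rich and poor in effector transcripts. The cells were split at the median CD44 count of their own library (83 and 70.5), which gave 17 and 17 cells in NW and 27 and 27 in ABX. CD62L protein was not lower on the CD44-high cells, whose medians were 43 and 82 UMIs against 23 and 35 on the CD44-low cells. Of 517 genes, 11 (2.13%) were at least 1.5-fold higher in CD44-high cells in both libraries and 10 (1.93%) lower.

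Ccl5 had 8625 CPM in CD44-high and 2287 CPM in CD44-low cells in NW (log2 ratio 1.92, 1.66 to 2.18) and 4113 against 1447 CPM in ABX (1.51, 1.26 to 1.77). Ly6c2 had 1722 against 717 CPM in NW (1.26, 0.77 to 1.78) and 1987 against 692 CPM in ABX (1.52, 1.16 to 1.90). Both were the highest ranked genes of this split. The calcium-binding S100a6 (1.99 and 1.23), Itgb1 (1.07 and 1.21), the adhesion receptor Adgre5 (1.41 and 1.1) and Itgal, the αL chain of LFA-1 (1.58 and 0.78), were also higher. Lef1 was lower, with 420 against 867 CPM in NW (-1.05, -1.74 to -0.38) and 397 against 665 CPM in ABX (-0.74, -1.26 to -0.23), and so were Actn1 (-1.90 and -0.75) and Add3 (-0.75 and -1.05). Lyz2, a macrophage gene, was among the 11 at 376 against 164 CPM and 311 against 144 CPM. The macrophage marker list as a whole summed to 1664 against 1674 CPM in NW and 1570 against 1070 CPM in ABX. Markers of other lineages were also higher in the CD44-high cells in ABX, with 69 against 17 UMIs for NK cells (log2 ratio 1.58, 0.80 to 2.44), 26 against 5 for γδ T cells (1.94, 0.53 to 3.68), 450 against 176 for B cells (0.91, 0.66 to 1.17) and a ratio of 0.48 for dendritic cells, while endothelial markers were lower (-1.44). In NW those of NK cells (19 against 16 UMIs, 0.20) and γδ T cells (9 against 7, 0.32) had intervals that included 0, and those of B cells (-0.54) and dendritic cells (-0.84) were lower. Their part in the effector difference was not tested. Genes of this split other than those of the lists were chosen after their values were seen.

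Several genes of the lists with fewer UMIs followed the same split. Ccr2, a chemokine receptor of inflammatory migration, had a UMI in 8 of 17 CD44-high and 1 of 17 CD44-low cells in NW and in 10 and 1 of 27 in ABX. Cxcr3 was found in 6 and 1 cells in NW and in 12 and 1 in ABX. The Cd44 transcript itself had log2 ratios of 1.76 (0.40 to 3.36) and 2.14 (0.88 to 3.68). Genes of naive cells lay on the CD44-low side. Igfbp4, an insulin-like growth factor binding protein, had log2 ratios of -3.44 (-6.58 to -1.41) and -2.25 (-3.85 to -0.89). Dapl1 was found in 0 CD44-high and 5 CD44-low cells in NW and in 5 and 16 cells in ABX.

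The effector list summed to 15281 CPM in CD44-high and 5037 CPM in CD44-low cells in NW and to 6921 against 3497 CPM in ABX. The memory list summed to 6729 against 3049 CPM in NW and 5563 against 3335 CPM in ABX. The naive list summed to 10882 against 12076 CPM and 8226 against 9752 CPM, so the split was steeper in effector and memory than in naive genes. Across single cells, the effector list per 1000 UMIs went with CD44 protein (Spearman correlation of 0.65 over 34 cells in NW and 0.51 over 54 in ABX) but hardly with CD62L (-0.14 and -0.09). Naive and effector transcripts went against each other (-0.52 and -0.46). All of these correlations share the depth of each cell and are a description.

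**Figure D4:**
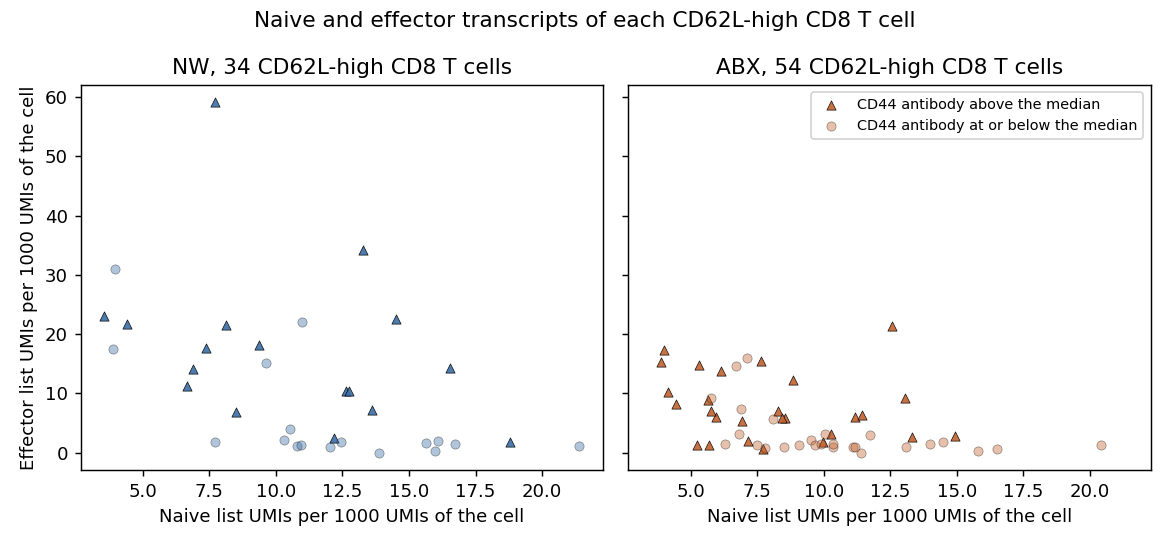
Each point is a CD62L-high CD8 T cell in NW (left, blue) or ABX (right, orange), placed by its naive list (x axis) and effector list (y axis) UMIs per 1000 UMIs, with triangles for CD44 antibody counts above the library's median and circles for those at or below it. Effector values reach 59.1 in NW and 21.4 in ABX, and most circles lie near the bottom.

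To describe the cells under antibiotics, the CD62L-high CD8 T cells of ABX were compared with those of NW. Effector genes were lower in ABX, among them Ccl5, S100a6, Id2 and several genes with few UMIs, and Hspa1b was among those higher. Of 517 genes with at least 100 UMIs, 17 (3.29%) were at least 1.5-fold higher in ABX and 35 (6.77%) lower. The counting interval of each of these excluded 0, which the limits on UMIs and fold nearly ensure, so it adds no support. The median log2 ratio over all 517 was -0.04. The balance depended on scaling, since CPM without mitochondrial and ribosomal protein genes gave 26 higher and 22 lower, and median-of-ratios scaling 21 and 27. Fewer transcripts per cell and fewer cells with a transcript both lower a summed level.

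Ccl5 had 5507 CPM in NW and 2982 CPM in ABX, a log2 ratio of -0.88 (-1.03 to -0.74). Over the 3 cells in NW and 4 in ABX without any UMI of other lineages' markers it was -0.02 (-0.50 to 0.47). Ccl5 had a UMI in 52.9% of the cells in NW and 57.4% in ABX, and in 53.3% and 47.6% after thinning to 1000 UMIs, so the order of the shares depended on depth. The thinned share in NW covers 33 of the 34 cells, since 1 cell held fewer than 1000 UMIs. S100a6 had 412 CPM in NW and 175 CPM in ABX (-1.23, -1.83 to -0.64), and the ratio was -0.37 with a limit of 20 CD62L UMIs. Id2, a transcriptional regulator that supports effector CD8 T cells, had 566 and 324 CPM (-0.80, -1.27 to -0.34), and Itgb1 had 419 and 236 CPM (-0.83). Cxcr4, the receptor for the retention chemokine CXCL12, had 471 and 255 CPM (-0.88, -1.40 to -0.36). The RNA-binding Zfp36l2, which favours mRNA decay, had 1463 and 805 CPM (-0.86, -1.15 to -0.58). The scaffold protein Ahnak (-0.75), the chromatin remodelling subunit Pbrm1 (-1.03), the casein kinase Csnk1a1 (-0.84), the ubiquitin ligase Mycbp2 (-0.79), the splicing-associated Bclaf1 (-0.75) and 4932438A13Rik (-0.92) made up the rest of the 12 lowest.

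Klf2, the transcription factor that maintains quiescence and tissue exit, had 823 CPM in NW and 496 CPM in ABX (-0.73, -1.11 to -0.35). Il7r had 1963 and 1266 CPM (-0.63, -0.87 to -0.39), and Txnip, an inhibitor of glucose uptake, had 993 and 618 CPM (-0.68). The naive list as a whole thus had 3 lower and 0 higher genes of 14 and summed to 11470 CPM in NW and 8874 CPM in ABX (-0.37, -0.46 to -0.28). Lower sums were therefore found in ABX for the naive as well as the effector list, but not for every naive gene. Tcf7 differed by -0.47 (-0.80 to -0.14) and Lef1 by -0.32 (-0.72 to 0.08). Dapl1 had a UMI in 14.7% of the cells in NW and in 38.9% in ABX.

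The 11 genes given here from the highest in ABX held no member of the naive, effector, memory or tissue residency lists. Rbm25 (0.89, but 0.27 with a CD62L limit of 5, where its interval of -0.14 to 0.69 included 0), Tardbp (0.70) and Ssb (0.78) encode RNA-binding proteins, Nop56 (0.75) a ribosome assembly factor and Ran (0.64) a nuclear transport GTPase. Hspa1b, an HSP70 heat shock gene of the dissociation stress list, had 956 CPM in NW and 1533 CPM in ABX (0.68, 0.39 to 0.98). The ratio fell below the 1.5-fold limit with a CD62L limit of 5 (0.41) and without the cells of 15 or more B cell marker UMIs (0.45). Hspa1b is nearly identical to Hspa1a, which makes its value uncertain, while that list as a whole had 1 higher and 0 lower of 11 genes and differed by 0.03. The others were the GTPase regulators Arhgap30 (0.76) and Arhgdia (0.61), the adaptor Ywhae (0.72), the tetraspanin Cd37 (0.68) and the long RNA Gm26917 (0.94). A mitochondrial gene, a ribosomal protein pseudogene and the immunoglobulin genes Igkc and Ighm were also among the 17. B cell markers summed to 1397 CPM in NW and 2387 CPM in ABX (0.77), and to 1083 and 938 CPM without the cells of 15 or more of their UMIs. Of the other marker lists, those of NK cells (35 and 86 UMIs), dendritic cells (273 and 596), macrophages (227 and 356) and γδ T cells (16 and 31) differed by 0.35, 0.18, -0.30 and 0.01 on the log2 scale, endothelial cells (12 and 45) by 0.96, and CD4 T cells and fibroblasts had 3 and 8 and 0 and 7 UMIs. Their part in the results was not tested beyond leaving out the cells rich in B cell markers.

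The effector list summed to 10242 CPM in NW and 5468 CPM in ABX, a log2 ratio of -0.91 (-1.01 to -0.80), with 3 lower and 0 higher of 4 genes. Of these sums, Ccl5 alone made up 5507 and 2982 CPM. The list difference did not rest on 1 cell, with 9388 and 5098 CPM (-0.88) once the cell with the most list UMIs was left out of each library. With a limit of 20 CD62L UMIs it was 7920 and 5187 CPM (-0.61, -0.75 to -0.47). It was lower in ABX among CD44-high cells (-1.14) and among CD44-low cells (-0.53), without the cells of 15 or more B cell marker UMIs (-0.83), without those of under 20 CD8b antibody UMIs (-1.18) and without those of over 10% mitochondrial UMIs (-0.93). CD62L-low CD8 T cells had 15666 and 10687 CPM.

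Single cytotoxic genes were too rare to be ranked. Gzmk, the granzyme of early memory CD8 T cells, had 18 UMIs in 6 of 34 cells in NW and 0 in ABX, where 0 of 54 cells allows a share of up to 5.56% of cells with a UMI at a bound of 3 counts (6.60% by the exact binomial interval). This limits cells with a UMI at this depth and not cells that express the gene. Against 3 counts its level in ABX was lower by at least 3.53 on the log2 scale. Ccl4, a chemokine of activated T cells, had 17 UMIs in 11 cells in NW and 6 UMIs in 5 cells in ABX (-2.45, -4.08 to -1.04). The granzyme genes Gzma (75 UMIs against 1) and Gzmb (34 against 2) were lower too, but 1 cell in NW held 45 of the 75 and 1 cell held 26 of the 34. Prf1 (perforin) had 12 and 11 UMIs (-1.07, -2.40 to 0.24), and Nkg7 differed by -0.55 (-0.95 to -0.14). Dapl1 went the other way with 9 UMIs in NW and 61 in ABX (1.81, 0.80 to 3.01).

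**Figure D5:**
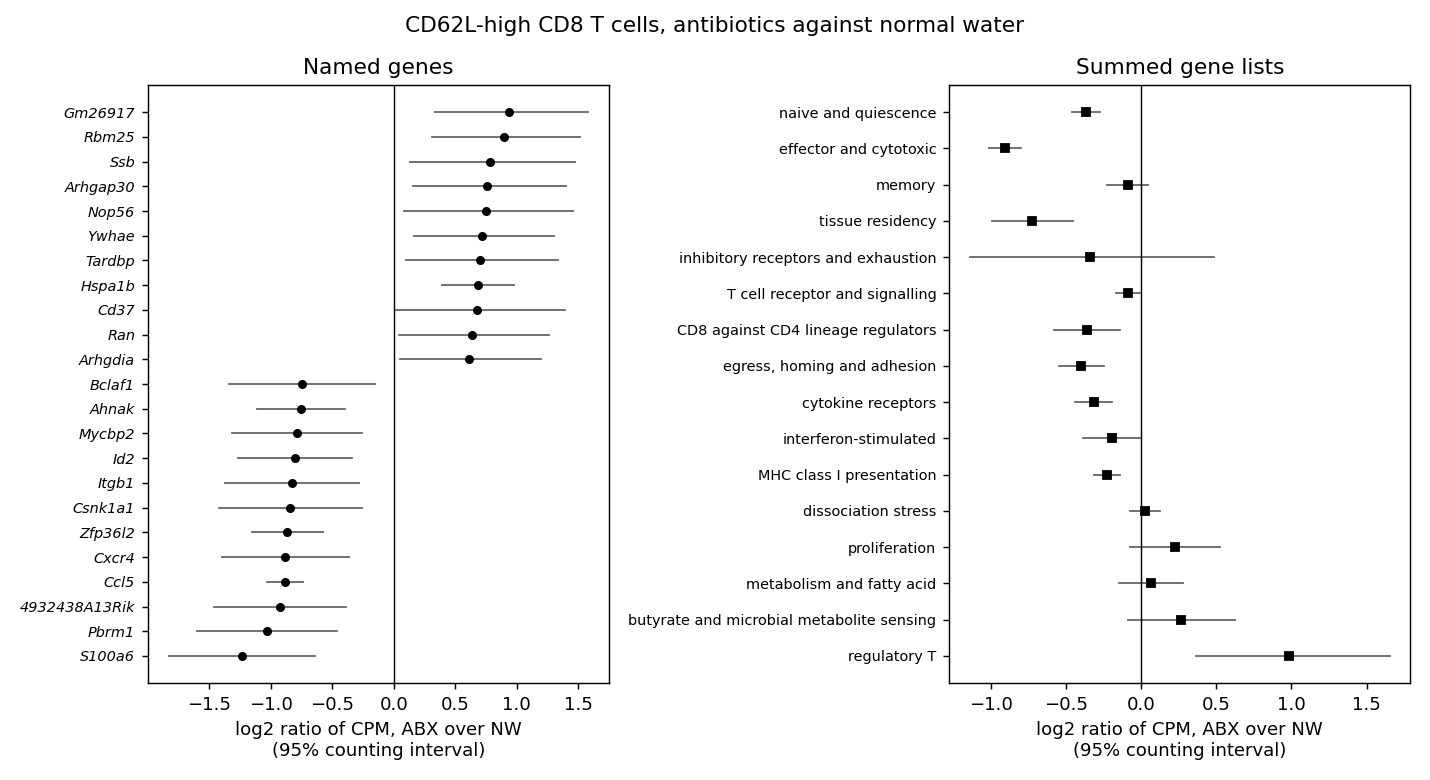
Log2 ratio of CPM in ABX over NW within the CD62L-high CD8 T cells (x axes) with 95% counting intervals as bars, for 11 of the highest and the 12 lowest genes (left) and for summed gene lists (right). The effector and cytotoxic list lies at -0.91, the tissue residency list at -0.73 and the T cell receptor and signalling list at -0.09.

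The tissue residency list, of which 0 genes reached 100 UMIs, summed to 1559 CPM in NW and 942 CPM in ABX (-0.73, -1.0 to -0.46), and to 1327 and 918 CPM without the cell with the most list UMIs in each library. Cxcr6 had 221 and 111 CPM (-1.0, -1.78 to -0.21). Nr4a1 had 154 and 45.8 CPM (-1.75, -2.91 to -0.66). Rgs2, a regulator of G protein signals, had 272 and 83.9 CPM (-1.70, -2.53 to -0.90), where 1 cell held 16 of the 37 UMIs in NW. Cd69 differed by -0.19 (-0.92 to 0.57). The 10 regulatory T cell genes summed to only 27 UMIs in NW and 103 in ABX (0.98, 0.36 to 1.65). Without the cell with the most list UMIs in each library they summed to 23 and 76 (0.78, 0.09 to 1.52). Of the 10 genes, Foxp3 had 0 and 1 UMIs and Tnfrsf18 (GITR) had 7 and 33 (1.29, 0.09 to 2.71).

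The sums of the other lists differed between ABX and NW by at most 0.40 on the log2 scale in either direction. The T cell receptor and signalling list had 0 of 18 genes past the limit, and its sum differed by -0.09 (-0.17 to -0.01). The memory list (1 lower of 6) differed by -0.09 (-0.23 to 0.05), the homing list (3 lower of 7) by -0.40 and the cytokine receptor list (1 lower of 5) by -0.32. MHC class I presentation (0 of 5) differed by -0.23, interferon-stimulated genes (0 of 2) by -0.20 (-0.39 to -0.0022) and the 10 lineage regulators (1 lower of 3) by -0.36. The sums of the proliferation (0.22), metabolism and fatty acid (0.06) and butyrate and microbial metabolite sensing (0.26) lists had intervals that included 0, as had inhibitory receptors and exhaustion (-0.34). None of these lists had a higher gene among those with 100 UMIs. Over all 517 genes only 3.29% were higher and 6.77% lower, so a 0 in lists this short says little.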

How the data were processed

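The deposited files hold UMI counts per cell barcode for every gene and for 10 antibodies, whole numbers without normalization, which the authors made with the BD Rhapsody pipeline on the mouse build GRCm38 (mm10 in the submitters' processing notes, which also name R 3.6.0 and Seurat 3.0.1). The methods list only 8 of the antibodies, without those to CD3 and NK-1.1. Cells with at least 500 gene UMIs, 200 genes and at most 25% mitochondrial UMIs were kept, as in the study. The files together name 26981 genes, and a gene absent from one of them counted as 0 there. The limits on antibodies and genes that chose the cells, and the gene lists, were set with earlier results of these data known.

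Library totals over the kept cells were 75214427 UMIs in NW and 60770758 in ABX, and over the CD62L-high CD8 T cells 136011 and 262240. UMIs were summed over cells per library and given as CPM. Ratios carry the exact conditional 95% interval of 2 Poisson counts, and shares the exact Clopper-Pearson interval. Both cover counting error only, since each condition has 1 library and cells are not replicates. A gene with 0 UMIs was bounded at 3 counts. Genes with at least 100 UMIs over the groups compared and a ratio of at least 1.5 (in both libraries for comparisons within a library) were counted, with no p-value. Named were genes of the lists that carry a statement and the 12 highest and 12 lowest of those counted, and mitochondrial, ribosomal protein and immunoglobulin genes were counted only. Results of a few genes are not reported here, and the lists and rankings are given without them, while the counts over all genes include them. Shares of cells with a UMI were also computed after thinning to 1000 UMIs (expected values), over the cells with at least 1000 UMIs. Doublets were not removed. Scrublet scores served an alternative that drops the highest 5%. The script was tested on simulated counts. The alternatives included other antibody, UMI and fold limits, other scalings and cells left out. Python 3.11.15 with numpy 2.4.6, scipy 1.17.1, pandas 2.3.3, scanpy 1.11.5 and matplotlib 3.10.9 was used.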

Additional observations from a re-analysis of the deposited data

Results flagged for a closer look

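Of 509 genes with at least 100 UMIs in both CD62L-high and CD62L-low CD8 T cells, the 5 given here lay on opposite sides of 0 in ABX against NW, each with a counting interval that excluded 0 in both kinds of cell. The difference between the 2 ratios was not tested, since each condition has 1 library. Kbtbd11, a BTB domain protein, had a log2 ratio of ABX to NW of -0.66 (-1.25 to -0.06) in CD62L-high and 0.69 (0.07 to 1.34) in CD62L-low cells, a difference of -1.35. The myosin light chain Myl12b had -0.51 and 0.42, a difference of -0.93. The MHC class II gene H2-Ab1, which T cells are not known to express, had 0.39 and -0.44, a difference of 0.83. The ribosomal protein gene Rps3 (0.28 and -0.21, difference 0.49) and the actin regulator Cfl1 (0.21 and -0.15, difference 0.36) had smaller ratios in both.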

How the results depend on the processing

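With 1 library per condition and few cells, the counts of genes depend on the limits. Many values of single genes moved little, but several settings kept nearly the same cells, which leaves little room to move. Of 34 CD62L-high CD8 T cells in NW and 54 in ABX, 33 and 54 were kept with at least 1000 UMIs. Without the highest 5% of Scrublet scores, 33 and 53 were kept. Over the alternatives, 297 of 322 values of named genes in ABX against NW moved by less than their counting interval, 13 moved further and 12 changed sign. All 12 changes of sign came from leaving out every cell with any UMI of another lineage's markers, which keeps only 3 cells in NW and 4 in ABX, so that those values rest on few UMIs. No paired analysis was possible because each condition has 1 library.

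The counts of genes are given in the order ABX higher (17), ABX lower (35), higher (35) and lower (92) than in CD62L-low CD8 T cells, and higher (32) and lower (94) than in CD62L-high CD4 T cells. With at least 50 UMIs per gene they were 78, 139, 76, 225, 87 and 253, with at least 200 UMIs 4, 11, 17, 30, 11 and 40, and with a fold limit of 2 they were 1, 2, 9, 25, 10 and 31. Without cells with a UMI of other lineages they were 2, 0, 10, 5, 1 and 1, where the 0 has no test behind it. A CD62L limit of 5 gave 53 lower in ABX, 14 and 42 against CD62L-low and 50 and 149 against CD4 T cells, and a limit of 20 gave 23 lower in ABX. At least 30 TCRβ UMIs gave 23 higher than in CD62L-low cells. At most 10% mitochondrial UMIs gave 9 higher in ABX and 61 lower than in CD4 T cells. CPM without mitochondrial and ribosomal protein genes gave 26 higher and 22 lower in ABX. Alternatives chosen after seeing the data left out cells with 15 or more B cell marker UMIs (45 lower than in CD4 T cells), with under 20 CD8b antibody UMIs (22 higher and 49 lower than in CD62L-low cells) or with 100 or more CD25 or NK-1.1 UMIs (62 lower than in CD4 T cells). The comparisons with CD4 T cells under every setting were also added then.

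The share among CD8 T cells (log10 ratio of ABX to NW) was 0.238 with a CD62L limit of 20 and -0.112 without cells with a UMI of other lineages. In that last setting the log2 ratios of ABX to NW that changed sign were -0.48 for Gm26917 and Cd37, -1.06 for Rbm25 and Nop56, -1.48 for Ssb and Arhgdia, -0.063 for Arhgap30, -0.89 for Tardbp, 0.52 for Csnk1a1, 0.40 for Itgb1, 1.22 for Id2 and 0.0072 for Ahnak. The cause of each change other than the number of cells or genes entering was not tested.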

Other observations

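The T cell receptor β chain constant genes Trbc1 and Trbc2, of which a T cell normally uses 1, were both found in 13 of 34 CD62L-high CD8 T cells in NW and in 23 of 54 in ABX. Trbc2 alone was found in 19 and 25 cells, Trbc1 alone in 1 and 4, and neither in 1 and 2. The genes are near-identical over their coding part, so reads can be split between them by the authors' counting.

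Of the CD62L-high CD8 T cells, 24 of 34 in NW and 36 of 54 in ABX had UMIs of both Cd8a and Cd8b1, 8 and 9 of Cd8a alone, and 2 and 9 of Cd8b1 alone. Ccr9, a gut homing receptor, had a UMI in 4 cells in NW and 12 in ABX. Of these, 0 and 3 were CD44-high, and CD62L-low CD8 T cells had it in 3 of 69 and 2 of 90 cells.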
